A study of Homo sapiens with 4 samples.

Results

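The replication-dependent histone genes were taken here as every sense-strand gene feature whose symbol begins with HIST and a digit and that had at least 300 counted bases. The rule gave 72 of 22984 sense features, with 69 distinct symbols. They comprised 6 linker histone H1 genes, 17 H2A, 20 H2B, 14 H3 and 15 H4 genes. The HIST1 cluster on chromosome 6 held 55 of them, the HIST2 and HIST3 clusters on chromosome 1 held 13 and 3, and HIST4H4 lay alone on chromosome 12. The length limit left out 1 gene, HIST1H2AD, an H2A gene with 82 counted bases. It had 29.5 reads with SM-164, 57.1 with DMSO, 4.10 on CD30L+ CHO and 3.02 on CHO cells. The shortest member inside the limit was the H4 gene HIST1H4K, with 354 counted bases and 8 reads with SM-164, 9 with DMSO, 0 on CD30L+ CHO and 0.346 on CHO cells.

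Nascent RNA was measured by Bru-seq, in which newly made RNA is labelled with bromouridine, captured with an antibody and sequenced. All 4 libraries came from Karpas 299, an established ALK-positive anaplastic large cell lymphoma line, and bromouridine was present for the final 30 minutes of a 3 hour exposure. In the drug experiment the cells received SM-164, an antagonist of the inhibitor of apoptosis proteins, or the solvent DMSO. In the co-culture experiment they lay on Chinese hamster ovary (CHO) cells that carried CD30 ligand, named CD30L+ CHO, or on CHO cells without it, and were then collected by pipetting. Each condition was run once, which leaves every difference without a check between replicates, and no p-value is given. Intervals cover counting error only, and reads from PCR without molecular identifiers are not independent molecules.

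These genes supply the histones that package newly replicated DNA. Their transcription is concentrated in S phase, the stretch of the cell cycle in which DNA is copied, and takes place at nuclear bodies organised by the coactivator NPAT. Most have no intron, and their messages end in a stem-loop bound by SLBP in place of a poly(A) tail. H2A, H2B, H3 and H4 build the nucleosome core, and H1 binds the DNA between cores. Bulk reads cannot tell a smaller share of S phase cells from less histone RNA per cell.

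The promoters of 5 genes are printed with the searched elements marked. HIST1H2BD and HIST1H4E have the most reads of H2B and H4. HIST1H1C, HIST1H2AE and HIST1H3B lead H1, H2A and H3 and were added after their values were seen. They are single examples and do not stand for their classes. Each runs 5′ to 3′ on the gene's own strand, from 250 bases before to 50 bases after the RefSeq start on build GRCh38.p14. Capitals mark the TATA box letters TATAAA, the CCAAT box, the octamer ATTTGCAT, the letters GGTCC of the H4 element and the letters AAACACA of the H1 box, each on either strand, so their reverse complements are in capitals too. AAACACA was added to the search after the sequences were seen.
HIST1H1C: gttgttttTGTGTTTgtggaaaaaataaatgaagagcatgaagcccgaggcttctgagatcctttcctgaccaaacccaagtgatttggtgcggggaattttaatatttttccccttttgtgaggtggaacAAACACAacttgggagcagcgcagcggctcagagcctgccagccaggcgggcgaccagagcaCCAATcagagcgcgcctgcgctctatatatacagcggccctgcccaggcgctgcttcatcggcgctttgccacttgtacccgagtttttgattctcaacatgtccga
HIST1H2AE: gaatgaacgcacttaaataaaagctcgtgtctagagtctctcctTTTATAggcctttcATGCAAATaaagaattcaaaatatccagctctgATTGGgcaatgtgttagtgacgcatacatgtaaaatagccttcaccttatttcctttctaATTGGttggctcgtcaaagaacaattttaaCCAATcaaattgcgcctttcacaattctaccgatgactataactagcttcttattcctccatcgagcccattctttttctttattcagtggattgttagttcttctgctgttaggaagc
HIST1H2BD: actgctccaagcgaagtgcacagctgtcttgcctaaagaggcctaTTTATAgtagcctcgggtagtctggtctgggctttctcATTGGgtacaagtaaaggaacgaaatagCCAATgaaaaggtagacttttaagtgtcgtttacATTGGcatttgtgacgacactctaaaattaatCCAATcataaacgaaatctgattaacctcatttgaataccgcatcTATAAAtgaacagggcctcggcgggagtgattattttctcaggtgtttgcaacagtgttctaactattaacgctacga
HIST1H3B: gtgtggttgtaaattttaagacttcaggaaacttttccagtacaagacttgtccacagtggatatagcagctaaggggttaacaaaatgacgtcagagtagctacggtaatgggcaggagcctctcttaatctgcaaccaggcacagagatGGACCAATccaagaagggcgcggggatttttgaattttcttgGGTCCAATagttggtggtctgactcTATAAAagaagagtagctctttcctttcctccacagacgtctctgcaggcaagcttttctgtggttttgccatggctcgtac
HIST1H4E: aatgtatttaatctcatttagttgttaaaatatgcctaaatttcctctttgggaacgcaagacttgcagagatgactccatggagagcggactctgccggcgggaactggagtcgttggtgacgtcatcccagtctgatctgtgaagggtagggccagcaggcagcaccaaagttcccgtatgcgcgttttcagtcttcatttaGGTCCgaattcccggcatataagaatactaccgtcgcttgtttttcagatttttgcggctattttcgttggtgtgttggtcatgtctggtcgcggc

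The HIST1H1C window is chr6:26056421-26056720 on the minus strand. The HIST1H2AE window is chr6:26216671-26216970 on the plus strand. The HIST1H2BD window is chr6:26157871-26158170 on the plus strand. The HIST1H3B window is chr6:26032050-26032349 on the minus strand. The HIST1H4E window is chr6:26204360-26204659 on the plus strand. TATAAA, the TATA box that positions the start of transcription, begins 28 bases before the start in HIST1H2BD and 32 bases before it in HIST1H3B. In HIST1H3B the letters GGTCC and CCAAT overlap at both of their positions. In HIST1H4E the GGTCC element begins 46 bases before the start. HIST1H2BD holds no octamer. In HIST1H2AE the octamer and TATAAA letters begin 192 and 206 bases before the start. The same sites lie 48 and 32 bases before the start of its neighbour HIST1H2BG on the opposite strand. HIST1H1C carries AAACACA beginning 119 bases before the start and its reverse letters beginning 242 bases before it.

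Of the 69 symbols, 68 matched RefSeq and 60 had a promoter window of this length. TATAAA was found in 40 of 60 member promoters (66.7%), against 12% of 27305 promoters in all. CCAAT was in 51 of 60 (85.0%), against 35.7%, and was present in every H1, H2A, H2B and H3 window but in 3 of 12 H4 windows. The octamer ATTTGCAT, which POU2F1 is known to bind in H2B promoters, was in 25 of 60 (41.7%), against 1.8% of all promoters. It was found in 14 of 18 H2B and 10 of 14 H2A windows, in 1 of 10 H3 windows and in no H1 or H4 window. GGTCC, part of the element bound by the H4 regulator HINFP, was in 11 of 12 H4 windows but in 20 of 60 overall (33.3%), below the 46.1% of all promoters. AAACACA was in all 6 H1 windows and 1 other member window, against 5.76% of all promoters. Some neighbouring genes start close together on opposite strands, and their windows overlap, so 1 site can be counted for 2 genes. The octamer of HIST1H2AE is also that of HIST1H2BG, and the only H3 octamer, in HIST1H3D, is also that of an H2B gene. These counts are of windows and not of separate sites. Matches are letters in a window and are not evidence of binding.

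The libraries held 26217590 reads with SM-164, 31030478 with DMSO, 45535365 on CD30L+ CHO and 45885631 on CHO cells. The cell line was checked by its markers: CD30, encoded by TNFRSF8, had 12.3 RPKM (reads per kilobase of gene, scaled to the library total) with SM-164, 9.59 with DMSO, 5.10 on CD30L+ CHO and 4.97 on CHO cells. The T cell genes CD2 and CD3E were at or near 0 in all 4, CD4 lay between 0.464 and 1.42 RPKM, and ALK was between 0.0966 and 0.137 RPKM. The B cell gene MS4A1 had no read, while PAX5, also a B cell gene, lay between 0.292 and 0.394 RPKM. Summed RPKM of 4 B cell, 3 epithelial and 3 stromal markers lay between 0.292 and 0.394 for the B cell, between 0.297 and 0.504 for the epithelial and between 0.00456 and 0.114 for the stromal genes. The sum of 3 myeloid markers was higher, between 0.995 and 1.46, with CSF1R between 0.653 and 0.752 RPKM. In both co-culture libraries this sum was above the level of CD4. Reads from hamster cells were not assessed here.

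The members made up 0.0556% of reads with SM-164 (95% exact binomial interval 0.0547 to 0.0565) and 0.0915% with DMSO (0.0904 to 0.0925). In co-culture they made up 0.00463% with CD30L+ CHO cells (0.00443 to 0.00483) and 0.00824% with plain CHO cells (0.00798 to 0.00851). The reads behind these shares were 14579 with SM-164, 28384 with DMSO, 2107 on CD30L+ CHO and 3781 on CHO cells. Both drug libraries thus held far more histone reads than both co-culture libraries, and within each experiment the SM-164 or CD30L+ CHO library held fewer than its control.

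**Figure D1:**
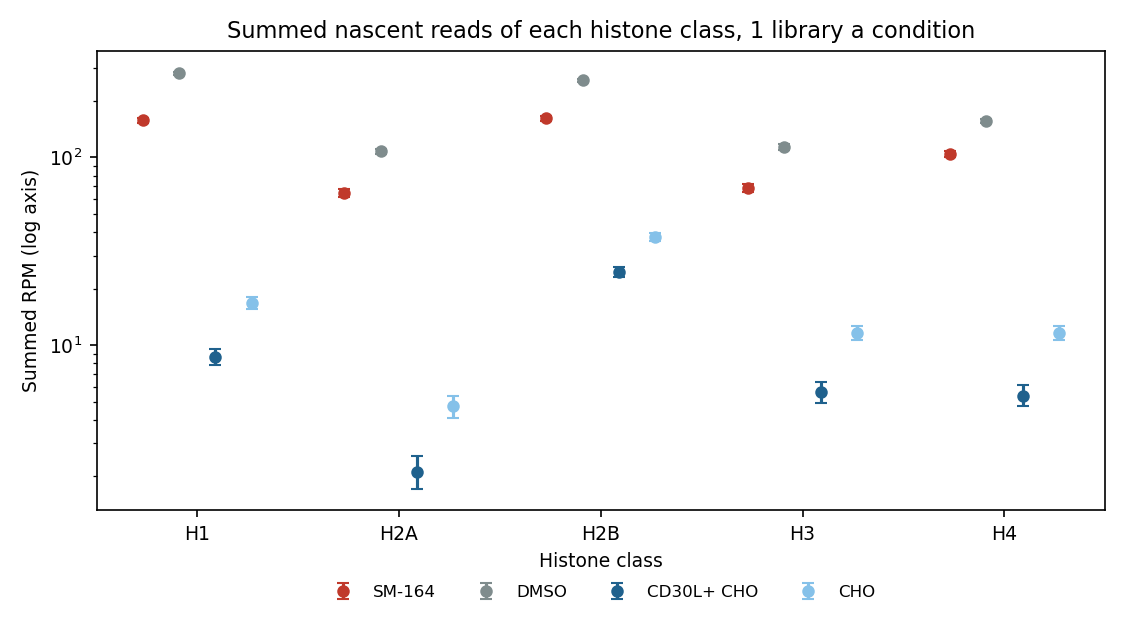
Summed RPM (reads scaled to the library total) of each histone class (log axis) in the 4 libraries, 1 library a condition; bars are exact binomial 95% intervals of the share, counting error only. In every class SM-164 lies below DMSO and CD30L+ CHO below CHO, and both co-culture libraries lie below both drug libraries.

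Per length, H1 was the highest class. The median H1 gene had 39.6 RPKM with SM-164 and 67.7 RPKM with DMSO, and HIST1H1C reached 71.2 and 130.2 RPKM. In the drug experiment the median levels then ran H4, H2B, H2A and H3 in both libraries: 11.1, 9.28, 6.96 and 5.02 RPKM with SM-164, and 18.1, 17.5, 9.84 and 8.13 RPKM with DMSO. In the co-culture experiment H1 was again the highest, at 0.893 RPKM on CD30L+ CHO cells and 2.23 RPKM on CHO cells, and H2A the lowest, at 0.140 and 0.357 RPKM. Ranges within a class were wide and the classes overlapped in every library, so the order of the lower 4 classes has no support beyond these medians.

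**Figure D2:**
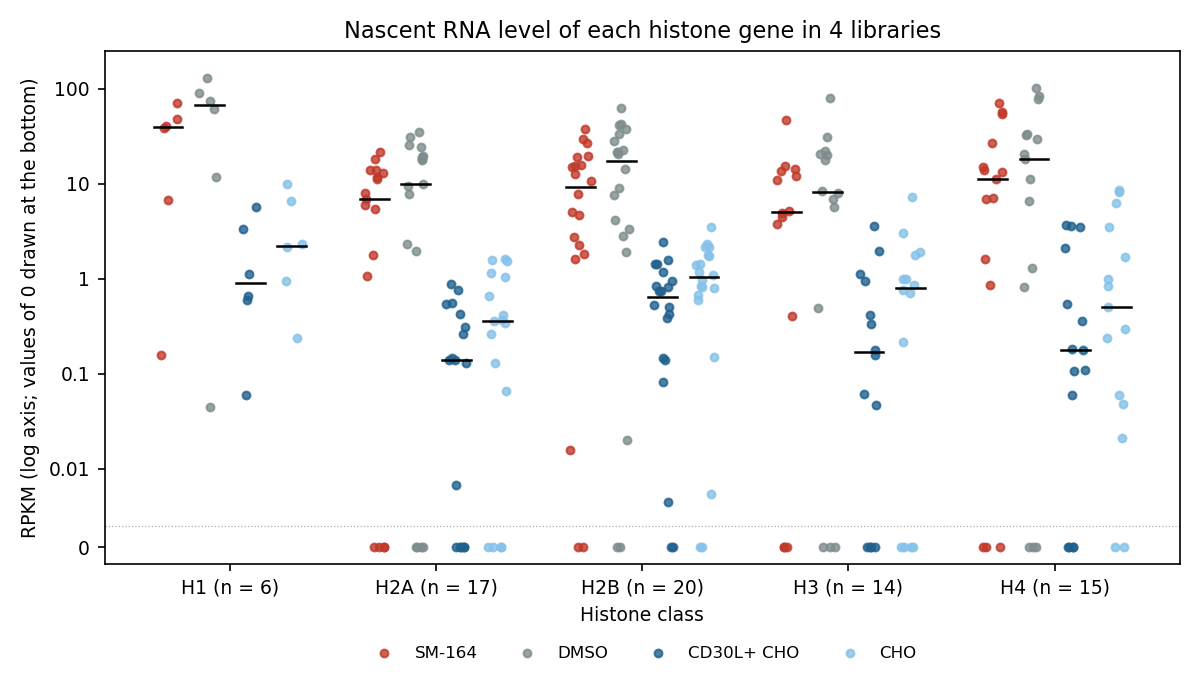
RPKM of each member (points, log axis, zeros drawn at the bottom) by class and library, with the class median as a bar. Median H1 levels were 39.6 RPKM with SM-164 and 67.7 with DMSO, and 0.893 on CD30L+ CHO and 2.23 on CHO cells.

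Of the 72 members, 11 were listed at 0 in all 4 libraries. The paired rows of HIST2H2AA, HIST2H3 and HIST2H4, each of them 2 copies of a gene under 1 symbol, account for 6 of these. Reads shared by near-identical copies may be split or lost in the counting, so a listing at 0 does not show that these genes were silent, and levels of other near-identical histone genes are uncertain in the same way. The other 5 were HIST1H2AA, HIST1H2BA and HIST3H3, testis histone genes, with HIST1H2APS1 and HIST2H2BA. HIST1H1T, the testis H1, had 3 reads with SM-164, 1 with DMSO, 2 on CD30L+ CHO and 8 on CHO cells. Without the rows at 0 in all libraries, the order of levels over 61 members was close between SM-164 and DMSO (Spearman rho 0.979) and between CD30L+ CHO and CHO (0.894). These members differ in length and share the library's depth, so the coefficients are descriptions.

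With SM-164 the histone genes were lower than with DMSO in every class. Summed over all members they gave 556 RPM (reads scaled to the library total as in RPKM, without the gene length) with SM-164 and 915 RPM with DMSO, a ratio of 0.608 (0.596 to 0.620). The class ratios were 0.561 for H1 (0.541 to 0.582), 0.599 for H2A (0.565 to 0.636), 0.627 for H2B (0.604 to 0.651), 0.605 for H3 (0.572 to 0.641) and 0.668 for H4 (0.637 to 0.700). The intervals of H1 and H4 did not overlap.

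Gene by gene, 57 members reached a mean of at least 0.5 RPKM in the 2 libraries, all of them in each library alone. On the scale of log2(RPKM + 0.25), 54 of the 57 were below 0, against 63.3% of all 7881 tested genes, and their median was -0.68, against -0.04 for all tested genes. At least 2-fold lower were 3 members, against 0.0634% of all tested genes, and no member was 2-fold higher, against 0.19%. Members made up 29 of the 50 lowest ratios. The counting interval of the ratio lay wholly below 1 for 50 of the 57, against 29.4% of all tested genes, and wholly above 1 for none, against 15.7%.

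Short genes as a whole leaned the same way. The 81 tested non-histone genes of 300 to 1000 counted bases had a median of -0.24, with 1 at least 2-fold lower, and the 53 members in that range had a median of -0.70. After the running median of non-histone genes of like length was subtracted, the members' median was -0.43 and none was 2-fold lower. This correction was added after the data were seen.

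**Figure D3:**
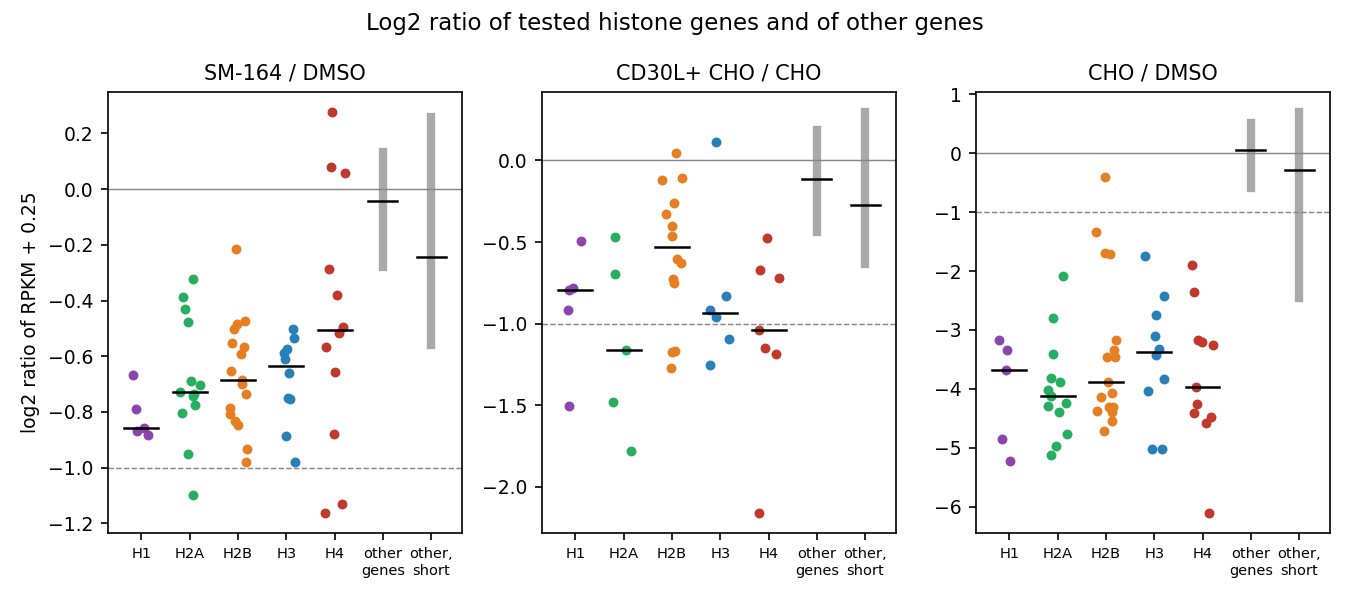
Log2 ratios of RPKM + 0.25 for each tested member (points) by class with the class median (bar), beside the 10th to 90th percentile (grey) and median of other tested genes and of other genes of 300 to 1000 counted bases. The dashed line is a 2-fold decrease; the member medians were -0.68, -0.78 and -3.88, and the 3 panels have different vertical scales.

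The H1 genes were close to one another with SM-164. HIST1H1C had 71.2 RPKM with SM-164 and 130.2 RPKM with DMSO, a log2 ratio of -0.87. HIST1H1E had 48.1 RPKM with SM-164 and 88.8 RPKM with DMSO (-0.88). For HIST1H1B the levels were 40.8 RPKM with SM-164 and 74.2 RPKM with DMSO (-0.86). The remaining tested H1 genes were HIST1H1A, at 6.74 RPKM with SM-164 and 11.8 RPKM with DMSO (-0.79), and HIST1H1D, at 38.4 RPKM with SM-164 and 61.2 RPKM with DMSO (-0.67). All 5 are somatic linker histones, and all 5 counting intervals lay below 1.

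Among core histones, HIST1H3B, the H3 gene with the most reads, had 47.1 RPKM with SM-164 and 79.4 RPKM with DMSO (-0.75). The H2A genes with most reads, HIST1H2AE and HIST2H2AC, had 21.7 and 18.1 RPKM with SM-164, against 35.1 and 31.1 RPKM with DMSO (-0.69 and -0.78). HIST1H2BD and HIST1H2BK led H2B in reads and were annotated over 13228 and 8566 bases. Their levels were 1.83 and 2.73 RPKM with SM-164, against 2.82 and 4.11 RPKM with DMSO (-0.57 and -0.55). The H4 genes spread most. HIST1H4D had 13.2 RPKM with SM-164 and 29.8 RPKM with DMSO (-1.16), and HIST1H4I had 15.2 RPKM with SM-164 and 33.4 RPKM with DMSO (-1.13). HIST1H4E and HIST1H4C, the H4 genes with most reads, had 70.5 and 56.2 RPKM with SM-164, against 101 and 83.4 RPKM with DMSO (-0.52 and -0.57).

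Only 3 tested members were not lower with SM-164, and all were H4 genes. HIST4H4 had 6.94 RPKM with SM-164 and 6.55 RPKM with DMSO, from 75 and 83.8 reads, a read ratio of 1.06 (0.764 to 1.46). HIST1H4J had 1.61 RPKM with SM-164 and 1.28 RPKM with DMSO, from 15.0 and 14.2 reads. HIST1H4K had 0.862 RPKM with SM-164 and 0.819 RPKM with DMSO, from 8 and 9 reads. The third member past 2-fold was the H2A gene HIST1H2AI, with 8.07 RPKM with SM-164 and 17.6 RPKM with DMSO (-1.10).

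On CD30L+ CHO cells the histone genes were lower than on CHO cells, from a much smaller level. All members gave 46.3 RPM on CD30L+ CHO cells, against 82.4 RPM on CHO cells, with a ratio of 0.562 (0.532 to 0.592). By class the ratios were 0.516 for H1 (0.456 to 0.584), 0.448 for H2A (0.348 to 0.572), 0.648 for H2B (0.601 to 0.699), 0.484 for H3 (0.415 to 0.563) and 0.466 for H4 (0.399 to 0.543). H2B lay above the other 4 classes without overlap. Its compact members, those of at most 1000 counted bases, had a ratio of 0.588 (0.498 to 0.693), which overlapped the intervals of H1, H2A, H3 and H4.

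Of the members, 37 reached a mean of 0.5 RPKM, 8 of them only through the CHO library, where they were higher. At least 2-fold lower were 13, against 0.731% of all 7661 tested genes, and none was 2-fold higher, against 0.979%. The 8 that passed only through the CHO library had to lean downward, which limits the reading of this count. They were HIST1H4L, HIST1H2AH, HIST1H2AE, HIST2H2BC, HIST1H4D, HIST1H2BB and HIST1H3C, all among the 13, and HIST1H3I (-0.92), which was not. HIST1H2BB, HIST1H3C and HIST1H3I are named only because they passed in this way. The median was -0.78, against -0.12 for all tested genes and -0.27 for 70 non-histone genes of 300 to 1000 counted bases, of which 4 were 2-fold lower. With the running median of non-histone genes in order of length subtracted, the median was -0.52 and 4 members were 2-fold lower. Here too the window took in genes over 1000 counted bases. Members made up 12 of the 50 lowest ratios. Counting intervals lay wholly below 1 for 27 of the 37, against 55.7% of all tested genes, and wholly above 1 for none, against 18.3%.

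HIST1H1C remained the highest H1 gene, with 5.68 RPKM on CD30L+ CHO cells and 9.95 RPKM on CHO cells (-0.78). HIST1H1D followed, with 3.35 RPKM on CD30L+ CHO cells and 6.55 RPKM on CHO cells (-0.92). HIST1H1E had 1.13 RPKM on CD30L+ CHO cells and 2.14 RPKM on CHO cells (-0.79), and HIST1H1A had 0.596 RPKM on CD30L+ CHO cells and 0.944 RPKM on CHO cells (-0.50). HIST1H1B had the lowest ratio of the 5 tested H1 genes, with 0.658 RPKM on CD30L+ CHO cells and 2.33 RPKM on CHO cells (-1.51), a read ratio of 0.288 (0.175 to 0.458). Its interval did not overlap that of HIST1H1C, 0.570 (0.474 to 0.684).

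Among the 37 tested members the H4 gene HIST1H4L had the lowest ratio, from 3 reads on CD30L+ CHO cells and 28 reads on CHO cells, a read ratio of 0.108 (0.0210 to 0.350). HIST1H2AH had 2.60 reads on CD30L+ CHO cells and 21.3 reads on CHO cells (-1.78). HIST1H4L and HIST1H2AH reached the mean of 0.5 RPKM only through the CHO library and so had to lean downward. HIST1H3B had 3.58 RPKM on CD30L+ CHO cells and 7.18 RPKM on CHO cells (-0.96). HIST1H4E had 3.67 RPKM on CD30L+ CHO cells and 6.22 RPKM on CHO cells (-0.72), and HIST1H4C had 2.11 RPKM on CD30L+ CHO cells and 3.50 RPKM on CHO cells (-0.67). At the other end, HIST1H3H had 1.95 RPKM on CD30L+ CHO cells and 1.79 RPKM on CHO cells (0.11), and HIST1H2BM had 0.837 RPKM on CD30L+ CHO cells and 0.804 RPKM on CHO cells (0.04). Their read ratios of 1.09 (0.685 to 1.72) and 1.07 (0.509 to 2.26) included 1.

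H2A and H2B genes often lie head to head with a shared stretch of promoter, and 12 such pairs had starts within 1 kb of each other. In HIST1H2AE and HIST1H2BG, 276 bases apart, the H2A partner had a log2 ratio of -1.48 on CD30L+ CHO over CHO cells and the H2B partner -0.26. In HIST1H2AH and HIST1H2BK, 271 bases apart, the values were -1.78 and -0.33. HIST1H2AH was counted over 439 bases and HIST1H2BK over 8566, so their values are not like for like. The opposite strand of HIST1H2BK held 236 and 210 reads on CD30L+ CHO and CHO cells, against 321 and 432 sense reads. With SM-164 over DMSO the same pairs gave -0.69 for HIST1H2AE and -0.48 for HIST1H2BG, and -0.95 for HIST1H2AH and -0.55 for HIST1H2BK. In co-culture HIST1H2AE, at 0.422 RPKM on CD30L+ CHO cells and 1.62 RPKM on CHO cells, and HIST1H2AH, at 0.130 and 1.06 RPKM, passed the level filter only through the CHO library and so had to lean downward. Where both partners were tested with SM-164 over DMSO, the H2A gene had the lower ratio in 6 of 10 pairs, a count made after the values were seen.

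The 3 sub-clusters of HIST1 behaved alike with SM-164. They span chr6:25726291-26285727 with 34 members, chr6:27100095-27115346 with 5 and chr6:27775257-27861669 with 16, on build hg19. Their summed ratios with SM-164 over DMSO were 0.608 (0.594 to 0.623), 0.584 (0.546 to 0.624) and 0.595 (0.566 to 0.625), and all 3 intervals overlapped. On CD30L+ CHO over CHO cells they were 0.520 (0.486 to 0.556), 0.712 (0.619 to 0.819) and 0.518 (0.427 to 0.626). The middle sub-cluster holds HIST1H2BK, which carried most of its co-culture reads. Of 30 non-histone genes lying in or between the sub-clusters, 11 were tested, and none was 2-fold lower or higher in either experiment. Of all tested genes, 0.0634% were 2-fold lower and 0.19% higher with SM-164, and 0.731% and 0.979% on CD30L+ CHO cells. A count of 0 of 11 is therefore near the background. The 11 neighbours had 3107 to 25370 counted bases, more than any compact member. Their medians were -0.13 with SM-164 over DMSO and -0.10 on CD30L+ CHO over CHO cells.

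**Figure D4:**
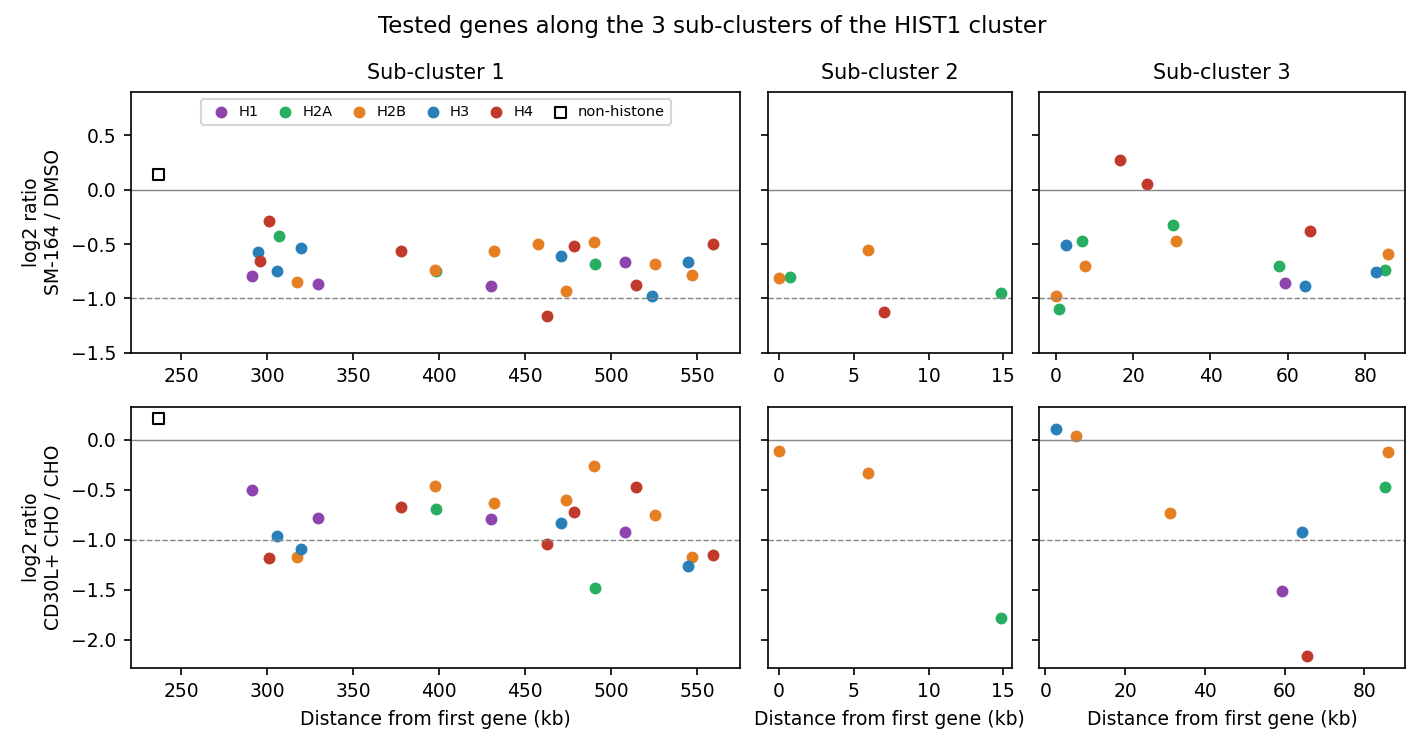
Log2 ratios of tested members along the 3 HIST1 sub-clusters, by distance in kb from the first annotated gene of each, coloured by class, with tested non-histone genes inside a sub-cluster as open squares; SM-164 over DMSO is above and CD30L+ CHO over CHO below. Nearly all members lie below 0 in both rows, and the square, TRIM38, lies at 0.14 in the upper and 0.21 in the lower row.

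Reads on the opposite strand gave a second readout at the same places. At 65 compact members with an antisense feature, the opposite strand held 21 reads with SM-164 and 34 with DMSO, or 0.169 and 0.139 per 100 sense reads. It held 39 reads on CD30L+ CHO and 77 on CHO cells, or 3.40 and 3.39 per 100 sense reads. The antisense ratio was 0.731 with SM-164 over DMSO (0.403 to 1.30), which includes 1. On CD30L+ CHO over CHO cells it was 0.510 (0.338 to 0.760), overlapping the sense ratio of compact members, 0.505 (0.470 to 0.542). In CHO over DMSO the antisense ratio was 1.53 (1.01 to 2.37), while the sense ratio was 0.0617 (0.0591 to 0.0644). At the 6 members over 1000 bases the opposite strand held 250 reads with SM-164 and 262 with DMSO, 658 on CD30L+ CHO and 749 on CHO cells. Per 100 sense reads these were 13.1 with SM-164, 7.62 with DMSO, 68.1 on CD30L+ CHO and 49.8 on CHO cells. Whether all sense reads of these members are histone RNA was not tested. HIST1H4I lies within the span of HIST1H2BK on the opposite strand. It had 147 reads with SM-164, 384 with DMSO, 1 on CD30L+ CHO and 4.08 on CHO cells. The opposite strand of HIST1H2BK was listed at 113, 97.0, 236 and 210 reads in the same order. The origin of these reads was not tested.

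**Figure D5:**
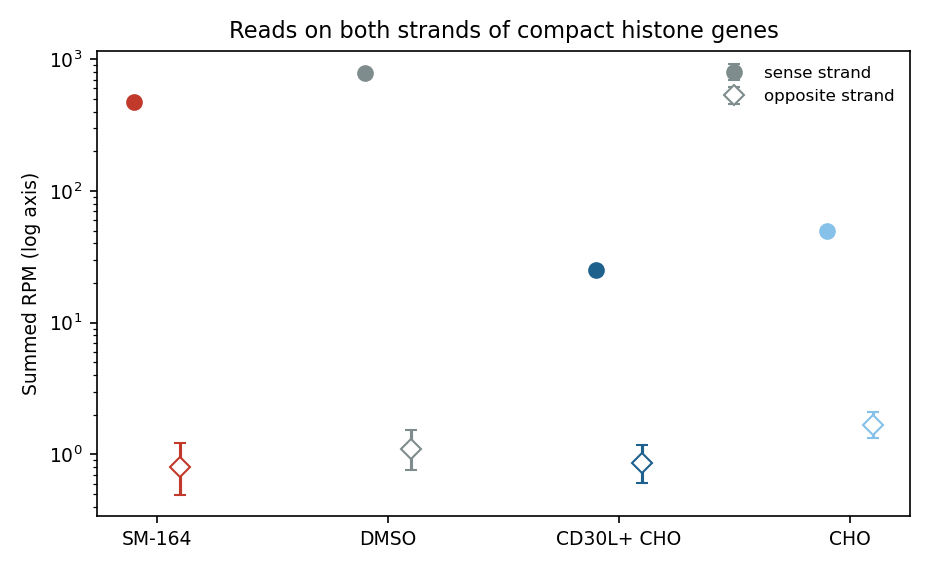
Summed RPM (log axis) on the sense strand (filled circles) and the opposite strand (open diamonds) of compact histone genes with an antisense feature in each library; bars are exact Poisson 95% intervals. The sense strand differs widely between experiments, from 12519 and 24562 reads with SM-164 and DMSO to 1139 and 2272 on CD30L+ CHO and CHO cells, and the opposite strand holds 21 to 77 reads.

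Between the control libraries, histone genes on CHO cells were far below those with DMSO. All members gave 82.4 RPM on CHO cells and 915 with DMSO, 11.1-fold lower (10.7 to 11.5). Of 56 tested members, 55 were at least 2-fold lower, against 4.52% of all 8081 tested genes, and none was 2-fold higher, against 0.879%. All 56 were below 0, against 43.8% of all tested genes. The median was -3.88, against 0.06 for all tested genes and -0.29 for 83 non-histone genes of 300 to 1000 counted bases, and members made up 45 of the 50 lowest ratios. All of the 56 passed through the DMSO library and 12 through it alone. These libraries belong to different experiments, so the effect of co-culture and of the experiment cannot be told apart.

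With all members counted, the classes differed in this comparison. The ratios were 0.0599 for H1 (0.0556 to 0.0645), 0.0437 for H2A (0.0379 to 0.0502), 0.147 for H2B (0.140 to 0.155), 0.102 for H3 (0.0928 to 0.112) and 0.0740 for H4 (0.0675 to 0.0810), none overlapping another. Both classes with the highest ratios, H2B and H3, hold members annotated over more than 1000 bases, and the other classes hold none. Compact members were 16.2-fold lower (15.5 to 16.9) and the 6 members over 1000 bases 3.38-fold lower (3.18 to 3.59). Compact H2B genes alone had a ratio of 0.0547 (0.0493 to 0.0605) and compact H3 genes 0.0779 (0.0696 to 0.0870). Among compact members H2B was no longer the highest class. Its interval overlapped those of H1 and H2A, and the interval of H3 overlapped that of H4.

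The lowest member was HIST1H4I, with 0.240 RPKM on CHO cells and 33.4 RPKM with DMSO (-6.10). HIST1H1E had 2.14 RPKM on CHO cells and 88.8 RPKM with DMSO (-5.22), while HIST1H1D had 6.55 RPKM on CHO cells and 61.2 RPKM with DMSO (-3.17). Among the members least lowered, HIST2H2BC had 1.39 RPKM on CHO cells and 1.91 RPKM with DMSO, a read ratio of 0.715 (0.438 to 1.17), and was the 1 tested member short of 2-fold. HIST1H2BD had 0.964 RPKM on CHO cells and 2.82 RPKM with DMSO (-1.34), and HIST1H3D had 1.89 RPKM on CHO cells and 6.89 RPKM with DMSO (-1.74). Chosen after their values were seen, the H4 gene HIST1H4B had 8.56 RPKM on CHO cells and 32.6 RPKM with DMSO (-1.90) and led H4 on CHO cells. HIST2H3D had no read on CD30L+ CHO or CHO cells, where 3 reads would be 0.0659 and 0.0654 RPM, against 62.0 reads with SM-164 and 112 with DMSO.

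Lists of genes that act on histone genes or in S phase had medians nearer 0 in the drug and co-culture comparisons. Past 2-fold lower or higher were 0.0634% and 0.19% of all tested genes with SM-164 over DMSO, and 0.731% and 0.979% on CD30L+ CHO over CHO cells, so counts of 0 in short lists are near the background. Of 25 tested factors of histone transcription and 3′ processing, none was 2-fold lower or higher with SM-164 over DMSO, and the median was -0.06. Of 26 tested on CD30L+ CHO over CHO cells none passed 2-fold, with a median of -0.11. NPAT had 1.82 RPKM with SM-164 and 1.69 RPKM with DMSO (0.09), and 2.01 RPKM on CD30L+ CHO cells and 1.88 RPKM on CHO cells (0.09). SLBP had 2.38 RPKM with SM-164 and 2.62 RPKM with DMSO (-0.13), and 1.95 RPKM on CD30L+ CHO cells and 2.48 RPKM on CHO cells (-0.31). CASP8AP2, a partner of NPAT, had log2 ratios of -0.14 and -0.13 in these comparisons, HINFP -0.08 and -0.35, and LSM11, a part of the U7 particle that cuts histone messages, -0.01 and -0.30.

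The 25 tested S phase genes held none past 2-fold with SM-164 over DMSO (median -0.09), and the 22 tested on CD30L+ CHO over CHO cells held none (median -0.16). Histone genes expressed outside S phase likewise held none past 2-fold, among 9 tested with SM-164 (median -0.16) and 6 on CD30L+ CHO cells (median -0.06). H2AFX and H1FX, below the level filter in co-culture, had read ratios of 0.418 (0.223 to 0.752) and 0.0746 (0.00860 to 0.297) there, from 17 and 2 reads on CD30L+ CHO cells, against 41.2 and 27 reads on CHO cells. H3F3A, which encodes the replacement histone H3.3, had ratios of -0.09 and -0.03 in the same comparisons, and its sister gene H3F3B -0.16 and -0.07. H2AFZ, the H2A.Z gene, had -0.38 and -0.18, and H2AFX, whose message can also end in the stem-loop, had -0.25 with SM-164. The 17 and 16 tested histone chaperone genes had medians of -0.02 and -0.12.

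On CHO cells over DMSO some genes of the same lists were 2-fold lower, against 4.52% of all tested genes. Of 25 S phase genes 5 were 2-fold lower (median -0.58), among them RRM2 (-1.62), CDT1 (-1.40), MCM4 (-1.16) and FEN1 (-1.12). RRM2, a subunit of ribonucleotide reductase, had 4.08 RPKM on CHO cells and 13.1 RPKM with DMSO. Of 9 histone genes outside the S phase set 3 were 2-fold lower (median -0.85): H2AFX (-2.66), H2AFZ (-1.55) and the linker histone gene H1FX (-1.52). H2AFX had 0.564 RPKM on CHO cells and 4.88 RPKM with DMSO. Of 26 factors 2 were 2-fold lower, CCNE2 (-1.17) and SSRP1 (-1.09), and of 16 chaperones 1, ANP32E (-1.16), with list medians of -0.14 and -0.10, and counts this small are near the background. NPAT was at 0.14 and SLBP at -0.07. Summed RPKM of 8 lymphoma line markers was 54.7 on CHO cells and 84.0 with DMSO, and that of 3 myeloid markers 1.46 and 1.09. Their part in the histone difference was not tested.

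The SM-164 and CD30L+ CHO contrasts share no library. Over the 37 members tested in both, their log2 ratios had a Pearson correlation of -0.02 and a Spearman rho of 0.05. These values rest on few reads in the co-culture libraries and are a description.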

How the data were processed

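Nascent RNA was measured by Bru-seq in 4 Karpas 299 libraries, 1 a condition. The authors deposited 1 gene table a library, with estimated counts over exons and introns together (fractional, in steps of 1/52 of a read), the same per base as a coverage signal, and RPKM. The submitters' processing notes name bedtools 2.16.2, TopHat 1.4.1, Bowtie 0.12.8 and CASAVA 1.8.2, without roles, and build hg19. The gene annotation and counting options are not given in the sources used here.

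Ratios were log2((RPKM + 0.25)/(RPKM + 0.25)) over 22798 sense genes, 1 row a symbol, tested at 300 or more counted bases and a mean of at least 0.5 RPKM; "tested" means past this filter, and 2-fold is the call. Summed estimated counts were rounded and divided by the library totals, 26217590 to 45885631 reads, with exact conditional 95% intervals. With 1 library a condition no p-value was computed. The script was checked on simulated data. Other settings were other pseudocounts, minima, lengths and thresholds, TMM scaling with edgeR 4.0.16 in R 4.3.3 and length corrections. Scripts ran in Python 3.11.15 with scipy 1.17.1, pandas 2.3.3, numpy 2.4.6 and matplotlib 3.10.9.

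The members and lists were chosen with earlier results of these data known. Members named are the 2 with most reads in each class, the 3 lowest and 2 highest ratios of each comparison, all H1 genes, the 2 H2A and H2B pairs with most reads and those nearest the length limit. List genes named are NPAT, SLBP, CASP8AP2, HINFP, LSM11, H3F3A, H3F3B, H2AFX, H2AFZ and any at 2-fold, apart from a gene that is not reported here. HIST symbols were matched to RefSeq through synonyms. Protein sequences were not used here.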

Additional observations from a re-analysis of the deposited data

How the results depend on the processing

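No paired analysis was possible because each condition has 1 library. No summed ratio changed direction under any setting tried. Single ratios under other settings were taken only for the named members. With the length trend of all genes subtracted, 3 ratios of named members, all short of 2-fold, changed sign. HIST2H2BC was 0.15 with SM-164 over DMSO and 0.48 on CHO over DMSO, against -0.21 and -0.40 in the main values. HIST1H2BG was 0.09 on CD30L+ CHO over CHO cells, against -0.26. Members that were not named may also have changed sign. Of 482 settings of single genes over 69 gene results, 387 were labelled as close to the main value and 95 as moved. These labels do not follow the counting intervals. The median member ratio with SM-164 over DMSO was -0.64 with a pseudocount of 1, -0.59 for members of 1000 or more bases, -0.64 with TMM scaling and -0.64 with all genes centred on a median of 0. It was -0.37 with the length trend of all genes subtracted and -0.43 with that of non-histone genes. The count at least 2-fold lower was 0 of 4 tested members of 1000 or more bases and 0 of 57 under both length corrections. It was 36 of 57 at a 1.5-fold threshold and 1 of 37 for members chosen by their co-culture level. The share of all tested genes past 1.5-fold was not computed, and the 10th percentile of their log2 ratios was -0.29. On CD30L+ CHO over CHO cells the median was -0.56 with a pseudocount of 1, -0.52 for long members, -0.58 with TMM scaling and -0.67 with all genes centred on a median of 0. Subtracting the length trend of all genes gave -0.47, and that of non-histone genes -0.52. The count was 4 of 37 with a pseudocount of 1 and under both length corrections. It was 6 of 21 at a mean of at least 1 RPKM, 0 of 4 for long members and 26 of 37 at 1.5-fold. The share of all tested genes past 1.5-fold was again not computed, and the 10th percentile of their log2 ratios was -0.45. On CHO over DMSO the median was -4.00 with a pseudocount of 0.1, -3.23 with 1, -3.81 with no minimum, -1.70 for long members (4 of 4 past 2-fold), -3.96 with TMM scaling, -3.94 with all genes centred on a median of 0, -3.99 for compact members, -2.94 with the length trend of all genes subtracted and -3.42 with that of non-histone genes. With TMM scaling the summed ratios were 0.627 for SM-164 over DMSO, 0.647 for CD30L+ CHO over CHO and 0.0834 for CHO over DMSO. With antisense reads subtracted the co-culture ratio was 0.481 and CHO over DMSO 0.0712, and compact members alone gave 0.505 and 0.0617. The causes of these shifts were not tested. The length trend of all genes includes the members, which were 53 of the 134 tested genes of at most 1000 counted bases in the drug comparison. The window of the running median also took in longer genes, so members were a smaller share of it. How far the members shaped this trend was not tested. Settings with the length trend of non-histone genes, compact members or levels in the other experiment were chosen after seeing the data. Few reads limit single members in co-culture, where HIST1H4L, for example, rests on 3 and 28 reads.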
